A study of Mus musculus with 36 samples.

Results

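The 10 genes described here encode RNA polymerase I subunits and factors (Polr1a, Polr1b and Ubtf), the core proteins of box C/D small nucleolar RNPs (Fbl, Nop56 and Nop58), the pseudouridine synthase of box H/ACA RNPs (Dkc1), and 3 abundant nucleolar phosphoproteins (Nolc1, Ncl and Npm1). They were taken by gene symbol, as a set named with earlier results of these data known. All 10 of 10 were found once among the 54842 genes counted and all passed the filter on low counts that left 28542 genes for testing. Their raw counts ran from 663 (Polr1b, lowest library) to 123234 (Npm1, highest library), so that depth limited none of them.

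RNA polymerase I transcribes the rRNA gene repeats inside the nucleolus, and UBF, the product of Ubtf, holds these repeats in an open state. Small nucleolar RNAs (snoRNAs) guide 2'-O-methylation (box C/D, with fibrillarin as the methyltransferase) and pseudouridylation (box H/ACA, with dyskerin) of the precursor rRNA, and many of them are cut out of introns of nucleolar protein genes. Nucleolin and nucleophosmin accompany ribosome assembly. In proliferating fibroblasts these genes are expressed at high levels.

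Total RNA was sequenced from 36 libraries of mouse embryonic fibroblasts (MEF), 12 groups of 3 replicates. Both lines carried a guide RNA to the major satellite repeat (MSR) and a doxycycline-inducible effector on one PiggyBac plasmid, under hygromycin selection. The effector was under a TRE promoter, whereas the guide RNA was expressed constitutively. The MSR-dCas9-Control line expressed dCas9 without an effector domain, and the MSR-dCas9-Activator line expressed dCas9-VPR, a fusion with a transcriptional activator. Each line was sampled uninduced, induced with 10 ng/ml doxycycline, and 3, 6, 12 and 24 h after its removal. Induction lasted 24 h in the Control and 6 h in the Activator line, so the length of exposure and the effector cannot be told apart in the induced group. The same holds for the groups 3, 6, 12 and 24 h after removal, which followed these inductions. The lines were selected for hygromycin resistance after transfection and kept as mixed cultures, not clones. In such cultures, fewer cells of a type and less RNA per cell cannot be told apart. The study reports that most induced Activator cells were apoptotic or dead at the last time after doxycycline removal, whereas Control cells stayed viable. What part this loss of viability had in the levels after removal, or in changes between these times, was not tested.

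Genes held from 27376846 to 57371803 counts per library. The GSAT_MM family, the targeted repeat, stood at 34.8 ± 1.85 normalised counts per 1000000 (CPM; SD, n = 3) in uninduced Control cells. It stood at 81.4 ± 25.1 in uninduced, 10337 ± 12782 in induced and 24960.5 ± 20297 CPM in Activator cells at 12 h (n = 3 each), in the direction the labels give. Of 9 fibroblast markers 8 were above 1 CPM in both lines and Thy1 was near 0 (at most 0.207 CPM). Epithelial, leukocyte and pluripotency markers were low, with summed levels of at most 4.28, 12.0 and 3.65 CPM in any library, whereas the endothelial sum rose from at most 1.90 CPM in Control to as much as 43.3 CPM in Activator libraries (Pecam1 up to 32.4, Tek up to 17.0, Cdh5 at most 0.554 and Kdr at most 1.36 CPM), and 4 of 4 of these markers passed higher at 12 h. In the 12 h Activator group the third library stood apart, with 89934 CPM of the LSU-rRNA_Hsa family against 920 and 481 in the other 2 libraries. Without it the 12 h mean of GSAT_MM was 13727 CPM (n = 2), and for the 10 genes, the lists and the snoRNA genes the 12 h results are also given without it.

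Counts per kilobase of exon spanned a wide range in uninduced Control cells. The length used was that of the exons of all annotated transcripts merged, 4209 bases for Fbl and 10758 for Nop58. This length can exceed that of the transcript expressed, and the order of the genes depends on it. Npm1 was highest at 518 ± 25.9 CPM per kb (SD, n = 3), followed by Ncl at 112 ± 4.78, Nop56 at 94.7 ± 4.90 and Nolc1 at 60.7 ± 2.68. Dkc1 (29.9 ± 1.06) and Ubtf (29.9 ± 0.53) did not differ beyond their spread. Nop58 (25.3 ± 1.21) and Fbl (19.6 ± 0.394) came next, and Polr1b (17.9 ± 0.700) and Polr1a (16.5 ± 0.694) were lowest.

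**Figure D1:**
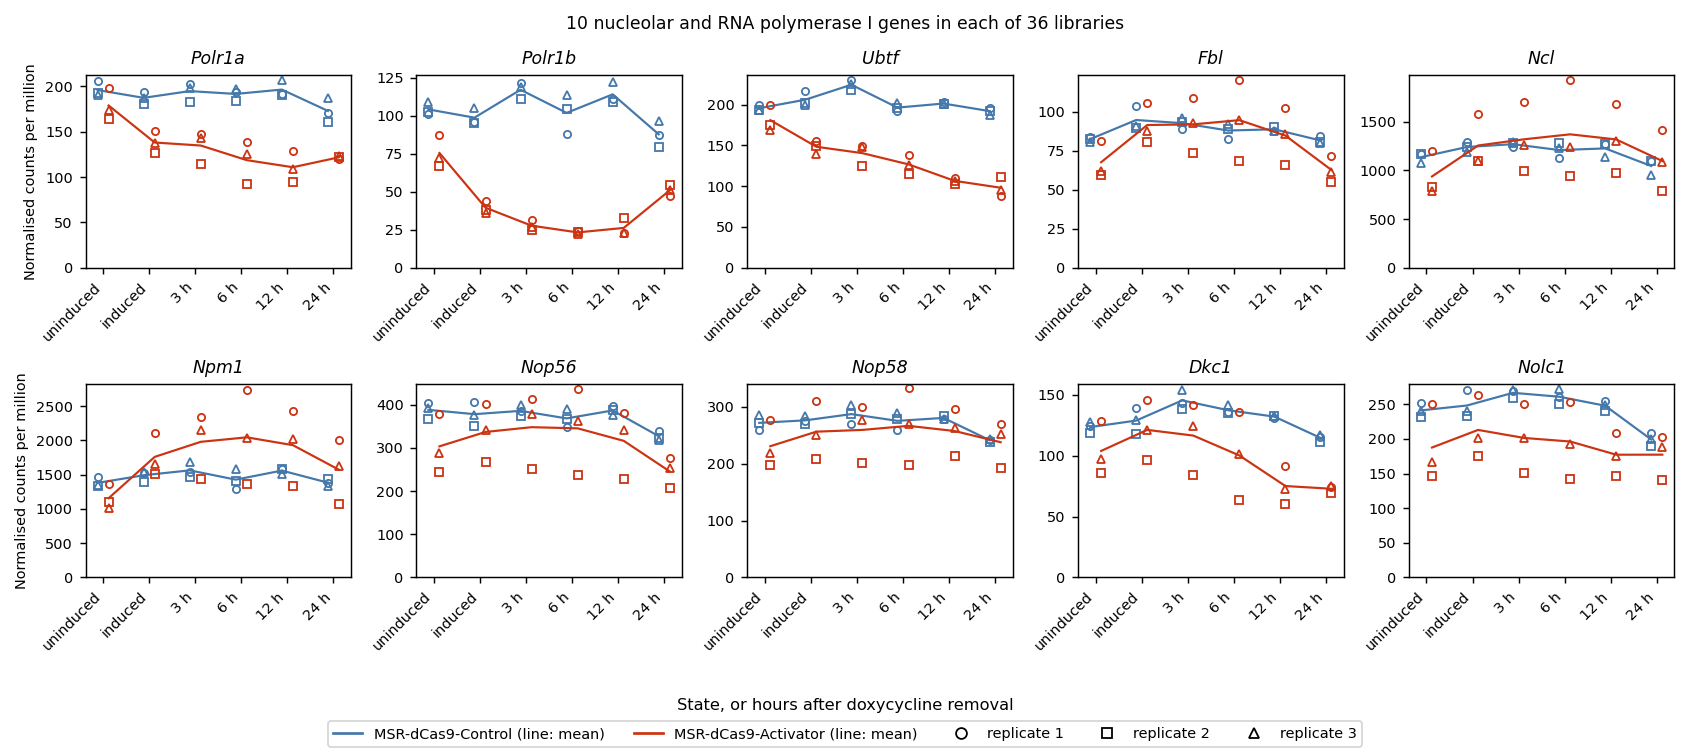
Normalised CPM (y axis, from 0) of the 10 genes in all 36 libraries by state or hours after doxycycline removal (x axis). Symbols mark replicates 1 to 3 and lines join group means for the Control (blue) and Activator (red) lines. Polr1b in the Activator line lies between 22.2 and 44.2 CPM from induction to 12 h, below every Control library, and the 3 Activator replicates are widely spread for Npm1, Ncl, Nop56 and Nolc1.

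Polr1b, which encodes the second largest subunit of RNA polymerase I (chr2:129100995-129126594, plus strand, GRCm38), showed the largest fall. In Control cells it was at 101, 103 and 109 CPM before induction and at 111, 109 and 122 CPM at 12 h. In Activator cells it was at 87.1, 67.1 and 72.0 CPM before induction, 44.2, 37.9 and 36.3 CPM after induction, 31.4, 24.8 and 26.8 CPM at 3 h, and 23.9, 23.5 and 22.2 CPM at 6 h. At every one of the 6 time points each Activator library was below each Control library. At 12 h the Activator values were 22.9, 32.8 and 22.9 CPM, and at 24 h 47.1, 54.3 and 51.4 CPM against 87.2, 79.4 and 96.4 CPM in the Control line.

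In log2 fold change (Activator minus Control, edgeR quasi-likelihood test, Benjamini-Hochberg adjusted over all genes tested), Polr1b moved from -0.47 ± 0.121 (SE; adjusted p = 0.0498) before induction to -1.32 ± 0.123 (6.65e-10) upon induction and -2.08 ± 0.126 (1.07e-13) at 3 h. It stayed at -2.13 ± 0.127 at 6 h and -2.12 ± 0.127 at 12 h (adjusted p = 6.55e-14 and 2.93e-14), a level 0.23 times that of Control cells, and stood at -0.78 ± 0.122 at 24 h (3.19e-06). Without the third 12 h Activator library the 12 h value was -2.02 (adjusted p = 2.59e-12). The call before induction was marginal: leaving out any one of 5 of the 6 uninduced libraries ended it, with adjusted p from 0.115 to 0.314, whereas it held without Activator replicate 1.

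Polr1a, the largest subunit (chr6:71909053-71984935, plus strand), was at 205, 192 and 190.2 CPM in uninduced Control and at 199, 164 and 174 CPM in uninduced Activator cells, 2 groups that overlap. At 12 h it was at 191, 191 and 207 CPM in Control against 129, 95.01 and 109 CPM in Activator cells, and at 24 h at 171, 161 and 187 against 120.4, 122 and 123 CPM. From induction on, all Activator libraries lay below all Control libraries. The log2 fold change went from -0.14 ± 0.089 (adjusted p = 0.671) before induction to -0.44 ± 0.0897 upon induction, -0.83 ± 0.0902 at 12 h (2.79e-09) and -0.50 ± 0.0898 at 24 h (2.23e-05). The 24 h call was lost when the 2 compared groups were fitted alone (-0.42, adjusted p = 0.0634). The antisense gene Gm26628 overlaps 185 exonic bases of Polr1a, and its counts amounted to 4.58% of those of Polr1a. Whether counting used the strand was not stated in the sources used here.

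Ubtf (chr11:102304560-102319742, minus strand) encodes UBF. It was at 203, 200.2 and 201 CPM in Control and at 110.5, 103 and 106 CPM in Activator cells at 12 h, and at 196, 192 and 188 against 87.5, 111 and 95.8 CPM at 24 h. The groups were apart from induction to 24 h. Its log2 fold change was -0.11 ± 0.0804 (adjusted p = 0.703) before induction, -0.47 ± 0.0806 upon induction, -0.92 ± 0.0812 at 12 h (5.51e-11) and -0.97 ± 0.0813 at 24 h (6.84e-11).

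From 12 to 24 h the difference between the lines narrowed for Polr1b, with a change of 1.33 ± 0.173 (log2; adjusted p = 2.76e-05), the 1 gene of the 10 to pass this test in the higher direction, against 9.39% of all genes tested. This count was 2 without replicate 1 of the Activator line at 12 h or at 24 h. In Activator cells at 24 h Polr1b was still 0.57 below its uninduced level on the log2 scale (-0.57 ± 0.122, adjusted p = 0.000226), and Ubtf was at -0.88 ± 0.0812 (4.73e-10) with its lowest group mean, 98.1 ± 11.9 CPM (SD, n = 3), at that time. Over the same span the mean of Polr1b in the Control line went from 104 to 87.7 CPM. The change of the Activator minus Control difference from the uninduced state to 24 h did not pass for Polr1b and passed for Ubtf.

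**Figure D2:**
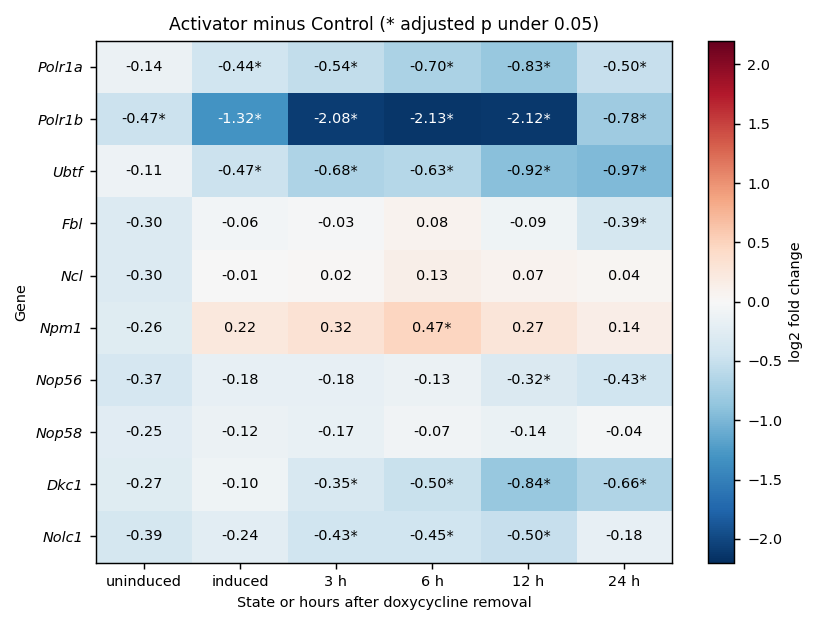
Fitted log2 fold change, Activator minus Control, of the 10 genes (rows) at the 6 states or hours after doxycycline removal (columns), in colour and as a number. An asterisk marks an adjusted p under 0.05, and Polr1b carries the 4 values beyond -1, from -1.32 upon induction to -2.13 at 6 h.

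Among the snoRNP proteins, Dkc1 (dyskerin, chrX:75095854-75109777, plus strand) changed most. It was at 131, 133 and 133 CPM in Control and at 91.9, 60.6 and 72.7 CPM in Activator cells at 12 h, and at 115, 111 and 117 against 74.6, 69.0 and 74.8 CPM at 24 h, with no overlap at either time. Upon induction the groups overlapped, at 139, 118 and 129 against 146, 96.5 and 121 CPM. Before induction its log2 fold change was already -0.27, which did not pass. The log2 fold change was -0.10 ± 0.142 (adjusted p = 0.554) upon induction, -0.35 ± 0.142 at 3 h (0.0315), -0.84 ± 0.144 at 12 h (6.95e-06) and -0.66 ± 0.143 at 24 h (0.000256). The change of this difference from the uninduced state passed at 12 h and did not pass at 24 h. The calls at 3 h and 6 h were lost with DESeq2's size factors (adjusted p = 0.256 and 0.0672), and without Activator replicate 2 (0.254 and 0.0508). On the opposite strand Mpp1 overlaps 45 exonic bases of Dkc1 and Idh3b 5 of Nop56.

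Nop56 (chr2:130274430-130279313, plus strand), a core box C/D protein, stood at 397, 387 and 376 CPM in Control and 381, 227 and 340.4 CPM in Activator cells at 12 h, and at 339, 324 and 319 against 277, 207 and 253 CPM at 24 h. Only the 24 h groups were apart. Before induction its log2 fold change was already -0.37, which did not pass. Nop56 passed at -0.32 ± 0.136 (adjusted p = 0.0343) at 12 h and -0.43 ± 0.136 (0.00732) at 24 h. The change of this difference from the uninduced state did not pass at 12 h or 24 h. The 12 h call was lost without Activator replicate 2 (-0.16, adjusted p = 0.322) or without Control replicate 2 (-0.20, 0.228), and under 4 of the 8 other settings. The 24 h call was lost with DESeq2 (adjusted p = 0.0511), with no replicate block (0.0655), with the compared groups alone (0.0734) and without Control replicate 2 (0.0615).

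Fbl (fibrillarin, chr7:28169710-28179269, plus strand) did not pass before 24 h. At that time it was at 84.5, 80.5 and 79.8 CPM in Control against 71.5, 54.98 and 61.5 CPM in Activator cells, which did not overlap. Its log2 fold change was then -0.39 ± 0.124 (adjusted p = 0.00747). This call was lost with DESeq2's size factors (adjusted p = 0.0559), with DESeq2 (0.0636) and with the compared groups alone (0.107). Before induction the log2 fold change was -0.30, and the change of this difference by 24 h did not pass. Sequences closely alike to Fbl lie in 2 annotated pseudogenes whose counts came to 18.5% of those of Fbl, so its values are less certain than the others. For Npm1 and Nop56 such pseudogenes number 8 and 4, with smaller shares, and none was found for the other 7 genes.

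Nop58 (chr1:59684971-59719044, plus strand), the partner of Nop56, did not pass at any time point. It stood at 279, 284 and 279 CPM in Control and 296, 214 and 262 CPM in Activator cells at 12 h, which overlap. The log2 fold change ran from -0.25 ± 0.128 before induction to -0.04 ± 0.128 at 24 h (adjusted p from 0.248 to 0.819).

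Nolc1 (chr19:46075863-46085530, plus strand) encodes a nucleolar chaperone of snoRNPs. It was at 254, 240.3 and 249 CPM in Control and 209, 147 and 175 CPM in Activator cells at 12 h, apart by a log2 fold change of -0.50 ± 0.124 (adjusted p = 0.000645). It also passed at 3 h (-0.43 ± 0.124, 0.00287) and 6 h (-0.45 ± 0.124, 0.00216), but with DESeq2's size factors these 2 calls were lost (adjusted p = 0.0656 and 0.0828). At 24 h it was at 208, 189 and 199.5 against 203, 141 and 188 CPM, with overlapping groups and a value of -0.18 ± 0.124 (0.198). Before induction the log2 fold change of Nolc1 was already -0.39, which did not pass. The change of this difference by 12 h did not pass either.

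Ncl (nucleolin, chr1:86344719-86359400, minus strand) did not pass at any time point. At 12 h its levels were 1267, 1271 and 1139 CPM in Control and 1679, 973 and 1301 CPM in Activator cells, one Activator library above and one below all Control libraries. The log2 fold change at 12 h was 0.07 ± 0.170, with an adjusted p of 0.698.

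Npm1 (nucleophosmin, chr11:33152287-33163206, minus strand) was the only gene of the 10 to pass higher in a comparison of Activator with Control cells at one time point. At 6 h it was at 1294, 1401 and 1584 CPM in Control and at 2733, 1365 and 2033 CPM in Activator cells, groups that overlap. The log2 fold change was 0.47 ± 0.167 (adjusted p = 0.0124), lost without Control replicate 1 (0.32, adjusted p = 0.112) or Activator replicate 1 (0.30, 0.132). Scaled to mitochondrial mRNAs it turned to -0.25 (0.056).

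The spread inside the Activator line followed the replicate number for most of these genes. Activator replicate 1 was the highest of its 3 libraries at 6 of 6 time points for Fbl, Ncl, Npm1, Nop56, Nop58 and Nolc1, already before induction, and replicate 2 was the lowest at 6 of 6 for Fbl, Nop56, Nop58, Dkc1 and Nolc1. Uninduced Nolc1, for example, was at 250.2, 146 and 167 CPM in Activator replicates 1 to 3 against 252, 231 and 239.8 CPM in the Control line. GSAT_MM had the same order before induction, at 100.2, 52.9 and 91.1 CPM in Activator replicates 1 to 3, but not at 12 h, at 7946, 19509 and 47427 CPM. For Polr1b and Ubtf the 3 replicates lay closer together.

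Counted over the 10 genes, 1 was lower in Activator cells before induction (Polr1b), against 0.354% of all genes tested, and all 10 values were below 0 with a median of -0.28 (log2). Upon induction 3 passed lower (Polr1a, Polr1b and Ubtf), against 25.8% of all genes, and 0 passed higher, against 31.6%. At 3 h the counts were 5 lower and 0 higher, against 31.7% and 39.3%. At 6 h they were 5 lower and 1 higher, against 33.3% and 41.1%. The largest counts were 6 lower and 0 higher at 12 h, against 33.1% and 42.2%, and 6 lower and 0 higher at 24 h, against 26.3% and 36.4%. Without the third Activator library the 12 h count was again 6, all lower: Polr1a (-0.81), Polr1b (-2.02), Ubtf (-0.93), Nop56 (-0.37), Dkc1 (-0.81) and Nolc1 (-0.51). Fbl, Nop58, Ncl and Npm1 then stood at -0.12, -0.14, 0.03 and 0.23 and did not pass. A missed threshold does not show that a level was equal in both lines.

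These genes are strongly expressed, and among the 6881 genes with a mean above 1000 normalised counts 52.7% passed lower at 12 h and 52.2% at 24 h. The 6 of 10 at these times are thus near the share of genes of like abundance, and the median of the 10 (-0.41 at 12 h and at 24 h) stood beside a median of -0.28 over those genes at both times. By the limits of the study's methods (a mean over 100, a change over 2-fold and adjusted p under 0.05), Polr1b alone was lower upon induction (against 5.79% of all genes), at 3 h (9.62%), 6 h (10.3%) and 12 h (10.4%), and none of the 10 at 24 h (3.31%). The sizes ranged at 12 h from 0.23 times the Control level for Polr1b to 1.21 times for Npm1, which did not pass at that time.

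How the libraries were scaled set the direction of the smaller differences. With size factors of DESeq2 the median of all genes at 12 h was 0.201 higher on the log2 scale than with TMM, and with scaling to the 13 mitochondrial mRNAs it was lower by 0.70 (-0.697). Polr1a, Polr1b, Ubtf, Dkc1 and Nolc1 were lower at 12 h and passed under all 5 scalings. Fbl and Nop58 turned from -0.09 and -0.14 to 0.09 and 0.04 with DESeq2's size factors, and Ncl turned to -0.06 with total counts and -0.58 with mitochondrial scaling, under which all 10 passed lower. With mitochondrial scaling 13886 of 27874 genes tested also passed lower at 12 h. The mitochondrial mRNAs themselves were higher in Activator cells, 8 of 13 passing with a median of 0.60 at 12 h, and what part of this belongs to the scaling was not tested.

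**Figure D3:**
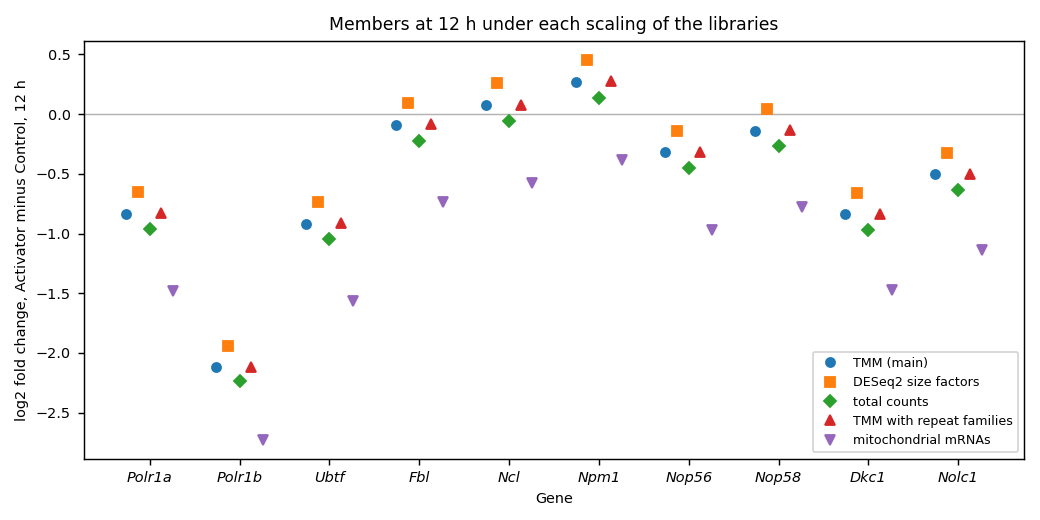
Log2 fold change, Activator minus Control at 12 h (y axis), of the 10 genes (x axis) under 5 scalings of the libraries (symbols). Polr1b lies between -1.94 and -2.73 and keeps its sign under each, while Ncl lies between 0.26 and -0.58 and crosses 0.

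Changes over time were compared between the lines by the change of the Activator minus Control difference from the uninduced state, 3 comparisons that share the uninduced libraries. Upon induction 2 of the 10 passed lower (Polr1b by -0.86 ± 0.172, adjusted p = 0.000469, and Ubtf by -0.36 ± 0.114, 0.0165), against 17.8% of all genes. At 12 h 4 passed lower, against 27.0%: Polr1b (-1.65 ± 0.173, 1.53e-08), Ubtf (-0.81 ± 0.114, 1.6e-06), Polr1a (-0.70 ± 0.127, 4.8e-05) and Dkc1 (-0.57 ± 0.202, 0.0196). At 24 h 2 passed lower, against 15.5%: Ubtf (-0.85 ± 0.114, 3.18e-06) and Polr1a (-0.37 ± 0.127, 0.028). Among genes with a mean above 1000 normalised counts, 23.3%, 43% and 33.5% passed lower upon induction, at 12 h and at 24 h. The 24 h count was 1 without Control uninduced replicate 1 or 3, Control 24 h replicate 3, Activator uninduced replicate 1, or Activator 24 h replicate 1 or 3. The count upon induction was 1 without Activator uninduced replicate 1, and the 12 h count was 4 without the third 12 h Activator library. With a replicate block within each line, added after the data were seen, 4 passed upon induction (1 higher and 3 lower) and 5 at 24 h (2 higher and 3 lower). Of the 28542 genes tested, 4886 passed higher and 6227 lower upon induction under this block, and 5043 and 6127 at 24 h.

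Within the Control line none of the 10 passed upon induction (0.249% of all genes passed) or at 24 h (1.21%) by edgeR. At an unadjusted p under 0.05 the counts were 0 and 2 (Polr1b and Nolc1). When the 6 compared libraries were fitted alone, the counts were 1 (higher) and 5 (all lower). Of all genes tested, 2312 of 20658 (991 higher) and 4358 of 20954 (2880 lower) then passed. In the Activator line 3 genes rose upon induction (against 32.6% of all genes) and 3 fell (against 28.3%). Fitted alone, the same 6 libraries gave 7 higher and 3 lower, against 6977 higher and 7410 lower of 23031 genes tested. Those that rose were Fbl (0.44 ± 0.124, adjusted p = 0.00336), Ncl (0.42 ± 0.170, 0.033) and Npm1 (0.60 ± 0.167, 0.00311), and those that fell were Polr1a (-0.37 ± 0.0896), Polr1b (-0.93 ± 0.123) and Ubtf (-0.29 ± 0.0805). At 24 h Npm1 was higher than before induction (0.42 ± 0.167, 0.0312), 1 gene against 35.5% of all genes, and 4 were lower (Polr1a, Polr1b, Ubtf and Dkc1), against 26.5%. Among genes with a mean above 1000 normalised counts, 30.3% passed higher and 33.7% lower upon induction in this line, and 15.2% and 54.4% at 24 h.

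The genomic sequence of these genes holds a second readout. Inside Ncl, Nop56, Nop58 and Dkc1 lie 13 annotated snoRNA genes on the host's strand (3, 5, 4 and 1), counted apart from their hosts. Of these, 6 lie wholly in introns and 7 overlap an annotated exon of some transcript of the host. Shown are 4 of the 6, chosen after their values were seen for their place in an intron and because they moved differently: Snord82 in Ncl (chr1:86356261-86356330, minus strand), Snord110 in Nop56 (chr2:130275506-130275573, plus strand), and Snord70 and Snord11 in Nop58 (chr1:59691934-59692020 and chr1:59704790-59704873, plus strand). Capitals mark the box C letters TGATGA near the 5′ end and the last CTGA (box D) near the 3′ end, as found by a search of the GENCODE transcript on the strand shown. In Snord70 no TGATGA was found in the first 20 bases.
Snord82: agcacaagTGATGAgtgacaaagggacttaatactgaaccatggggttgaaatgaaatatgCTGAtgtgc
Snord110: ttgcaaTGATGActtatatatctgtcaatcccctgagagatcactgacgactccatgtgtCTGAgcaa
Snord70: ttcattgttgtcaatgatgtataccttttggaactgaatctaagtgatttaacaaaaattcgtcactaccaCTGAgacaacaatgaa
Snord11: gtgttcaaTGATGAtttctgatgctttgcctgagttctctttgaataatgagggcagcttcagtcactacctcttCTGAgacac

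Counts at most of these snoRNA genes were lower in Activator cells after induction. Snord82 was at 0.852, 0.893 and 0.775 CPM in Control and at 0.360, 0.228 and 0.207 CPM in Activator cells at 12 h, and at 0.707, 0.937 and 1.09 against 0.195, 0.167 and 0.127 CPM at 3 h, with no overlap at either time. Its log2 fold change was -2.44 ± 0.309 at 3 h (edgeR, adjusted p = 6.86e-08) and -1.63 ± 0.296 at 12 h (1.62e-05), beside 0.02 ± 0.170 and 0.07 ± 0.170 for Ncl. At 24 h it was -0.54 ± 0.256 (0.0641). These are counts of 5 to 70 reads per library, far fewer than for the hosts.

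Snora75, the most counted snoRNA gene of Ncl, was at -1.89 ± 0.228 upon induction, -2.50 ± 0.242 at 3 h, -1.98 ± 0.230 at 12 h (adjusted p = 1.09e-08) and -0.88 ± 0.215 at 24 h (0.000852). Its whole annotated length overlaps a host exon. Gm23187, the most counted one of Nop56, stood at -1.65 ± 0.149 at 12 h (8.2e-11) beside -0.32 ± 0.136 for Nop56. The whole annotated length of Gm23187 overlaps a host exon too. Snord110 in the same host reached -1.99 ± 0.325 at 3 h (4.14e-06) and was at 0.01 ± 0.298 at 24 h (0.969).

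In Nop58, Snord70 was at 2.73, 2.72 and 2.58 CPM in Control and 1.18, 1.07 and 0.793 CPM in Activator cells at 12 h, a log2 fold change of -1.39 ± 0.217 (adjusted p = 1.85e-06) beside -0.14 ± 0.128 for the host. Snord11, in a later intron of the same gene, was at 1.13, 1.198 and 1.01 against 1.10, 1.19 and 0.862 CPM, and its value was -0.08 ± 0.227 (0.764). Gm26287, also in Nop58, was at 0.42 ± 0.257 (0.14) at 12 h and 1.15 ± 0.257 (0.000327) at 24 h. The snoRNA genes of 1 host therefore did not share one course. Gm25520, the snoRNA gene of Dkc1, was at -2.06 ± 0.448 at 12 h (0.000162), from 3 to 36 reads per library at that time.

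Of all 13, the numbers that passed lower were 11, 12, 12, 11 and 7 in the order of time from induction to 24 h, with medians of -1.55, -1.99, -1.61, -1.63 and -0.57 (log2), and 1 passed higher at 24 h (Gm26287). Of the 445 other snoRNA genes tested, 47.9%, 58.4%, 61.3%, 57.8% and 34.8% passed lower at these times, beside 25.8% to 33.3% of all genes. The medians of the 4 hosts at the same times lay between -0.10 and -0.23, with Dkc1 itself at -0.84 at 12 h. The other snoRNA genes had a median of -1.06 at 12 h, so a fall was common among snoRNA genes and is not particular to these 13. Without the third 12 h Activator library 11 of 13 passed again, and under the 5 scalings 10 to 12 did. The difference between a host and its snoRNA genes was not tested. Reads in an intron can come from the snoRNA or from unspliced host RNA, and these cannot be told apart in the counts. At the snoRNA genes that overlap a host exon, reads can also come from that exon of the host.

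**Figure D4:**
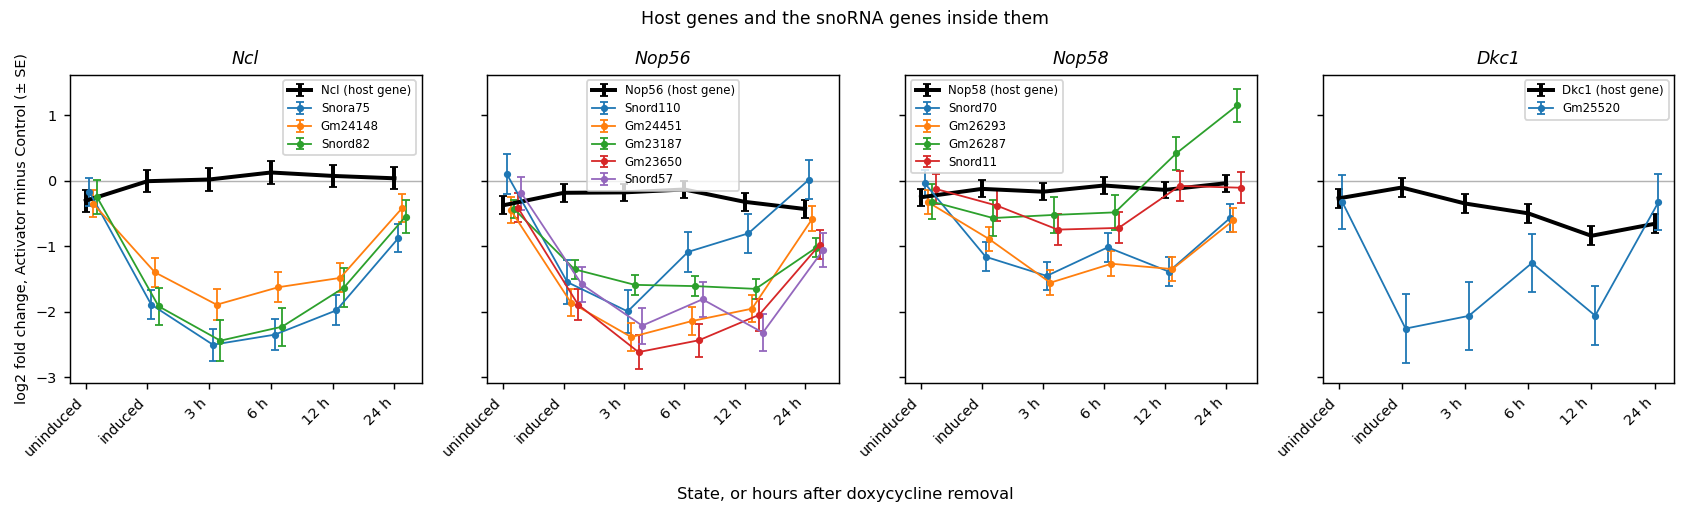
Log2 fold change, Activator minus Control (y axis; bars ± SE), of 4 host genes (thick black lines) and of the 13 snoRNA genes inside them (thin coloured lines) by state or hours after doxycycline removal (x axis). At 3 h Snora75 stands at -2.50 and Ncl at 0.02, and in Nop58 the 4 snoRNA genes spread from -1.56 to -0.52 at that time.

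Beyond the 10 genes, 5 lists of the pathway, which leave the 10 out, were counted at 12 h. Of the other 11 RNA polymerase I subunits 8 passed lower and 2 higher, with a median of -0.46. The largest falls were those of Cd3eap, the polymerase-associated factor also called Polr1g (-1.50 ± 0.125), and Twistnb, also called Polr1f (-0.77 ± 0.0950). The 2 that rose were Polr2k (0.61 ± 0.187) and Znrd1 (0.34 ± 0.109), of which Polr2k belongs to all 3 polymerases. Cd3eap stood at 29.7, 30.6 and 29.0 CPM in Control and 10.7, 10.9 and 9.82 CPM in Activator cells, well apart.

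Of 14 initiation and regulatory factors of RNA polymerase I 6 passed lower and 4 higher, with a median of -0.16, which turned to 0.03 with DESeq2's size factors. Baz2a, the large subunit of the silencing complex NoRC, fell by 1.41 ± 0.232 on the log2 scale (-1.41), and Myc, a transcription factor of many ribosome biogenesis genes, by 1.38 ± 0.241. Myc was at 191, 206 and 221 CPM in Control against 57.4, 108 and 75.7 CPM in Activator cells at 12 h, and at 159, 168 and 190.2 against 152, 140.3 and 161 CPM at 24 h. The members with the largest rise were Max, the partner of Myc (0.59 ± 0.107), and Taf1d (0.52 ± 0.164).

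Of 14 further snoRNP proteins and assembly factors 8 passed lower and 2 higher (median -0.43). Coil, the scaffold of Cajal bodies, fell by 2.11 ± 0.189 on the log2 scale, from 17.2, 16.2 and 15.2 CPM in Control to 2.91, 5.70 and 2.86 CPM in Activator cells, and Nop10, a box H/ACA core protein, by 0.71 ± 0.154. Nufip1 (0.68 ± 0.0970) and Pih1d1 (0.55 ± 0.108), both assembly factors, rose.

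The small-subunit processome list had 29 of 46 lower and 7 higher (median -0.39), with Imp3 (-1.995 ± 0.222) and Utp3 (-1.76 ± 0.122) falling most and Utp15 (1.04 ± 0.101) and Utp11 (0.40 ± 0.127) rising most. The large-subunit assembly list had 25 of 45 lower and 6 higher (median -0.25; 16 lower with DESeq2's size factors), led by Urb2 (-1.90 ± 0.168) and Ppan (-1.72 ± 0.117) below and Gnl2 (0.83 ± 0.107) and Nsa2 (0.64 ± 0.133) above 0. All values are log2 fold changes ± SE, and every gene named passed at 12 h. At 24 h the medians of the 5 lists lay between -0.29 and -0.10. At 12 h 33.1% of all genes passed lower and 42.2% higher, and among genes with a mean above 1000, which some list members do not reach, 52.7% and 24.0%. Without the third 12 h Activator library the lists had, in the order above, 8, 5, 8, 27 and 21 lower and 2, 4, 2, 7 and 5 higher. No list was tested against other genes.

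**Figure D5:**
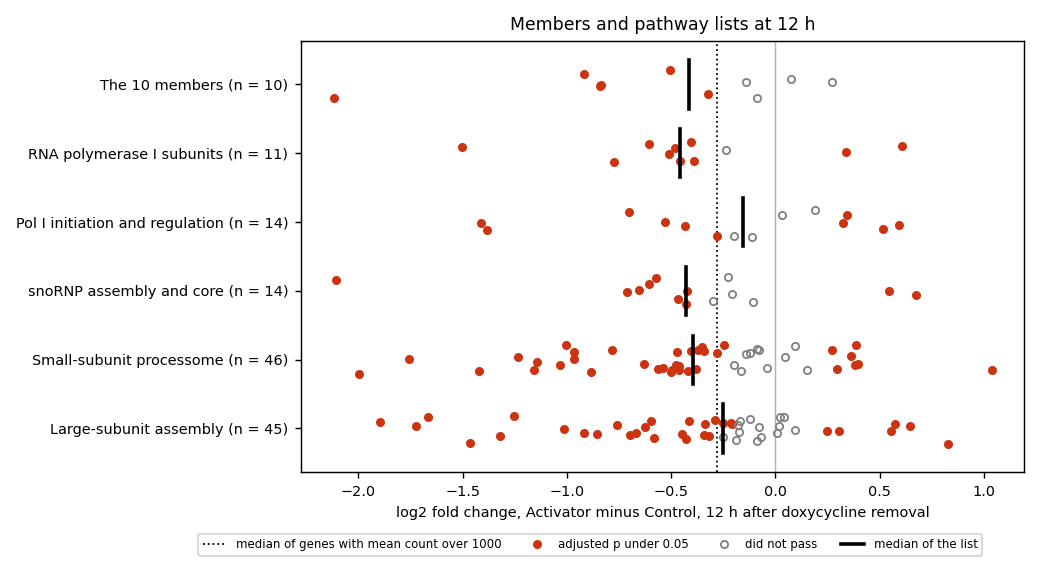
Log2 fold change, Activator minus Control at 12 h (x axis), of each gene of the 10 and of 5 pathway lists (rows). Filled red points passed at adjusted p under 0.05, open grey points did not, thick bars are list medians and the dotted line is the median of genes with a mean count over 1000. Medians run from -0.46 (RNA polymerase I subunits) to -0.16 (initiation and regulation).

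Other measures moved at the same times. Of 15 proliferation genes 7 passed higher and 3 lower at 3 h, 0 and 9 at 12 h (median -0.39), and 0 and 12 at 24 h (median -0.71). Of all genes, 39.3% passed higher and 31.7% lower at 3 h, and 33.1% and 26.3% lower at 12 h and 24 h. The summed level of 9 fibroblast markers went as low as 11287 CPM in the Activator line against at least 22211 CPM in the Control line. Reads of the rRNA families, which rest on human repeat consensus sequences and on RNA depleted of rRNA, ran from 226 to 920 CPM for LSU-rRNA_Hsa and from 30.5 to 199 CPM for SSU-rRNA_Hsa in the Activator line without the 12 h library that stood apart, and give no measure of rRNA synthesis. The part of these in the results above was not tested.

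Over the 12 group means, the 10 genes did not form one pattern. Nop56 and Nolc1 followed the mean of the other 9 most closely (Pearson r = 0.946 and 0.925), Polr1b (0.446) and Ncl (0.393) loosely, and Npm1 did not (-0.127). The genes outside the 10 whose level was most like their mean pattern were Abi1 (r = 0.969), Wdr36 (0.967), Stk39 (0.954), Las1l (0.950) and Orc2 (0.950), out of 6871 compared over 12 group means. Wdr36 is a processome subunit and Las1l a nuclease of rRNA maturation, with 12 h values of -0.56 and -0.18 (log2).

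Promoter sequences from RefSeq (GRCm38.p6, 250 bases before to 50 after the start) were at hand for 8 of the 10 genes, all but Fbl and Npm1, using the first listed start. The E-box CACGTG, the site letters of Myc and Max, was in 0 of these 8 windows and in 7.24% of 27025 promoters. The GC box GGGCGG (or CCGCCC) was in 5 of 8 (35.9% of all) and CCAAT (or ATTGG) in 4 of 8 (37.9%), each searched on both strands. Ubtf has 6 listed starts. The first, counted here, holds CCAAT and no GC box, whereas each of the others holds a GC box and no CCAAT. Shown are the windows of Polr1b (chr2:129100746-129101045, plus strand), which fell most, and Ncl (chr1:86359406-86359705, minus strand), which did not pass, with GC boxes in capitals. Both hold this motif, 1 time in Polr1b and 3 times in Ncl.
Polr1b: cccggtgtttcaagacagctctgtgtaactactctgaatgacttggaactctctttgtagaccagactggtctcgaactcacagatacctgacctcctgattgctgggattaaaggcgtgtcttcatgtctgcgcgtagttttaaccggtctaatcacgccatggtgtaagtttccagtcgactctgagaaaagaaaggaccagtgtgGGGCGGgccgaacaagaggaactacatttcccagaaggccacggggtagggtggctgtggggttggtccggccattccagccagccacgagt
Ncl: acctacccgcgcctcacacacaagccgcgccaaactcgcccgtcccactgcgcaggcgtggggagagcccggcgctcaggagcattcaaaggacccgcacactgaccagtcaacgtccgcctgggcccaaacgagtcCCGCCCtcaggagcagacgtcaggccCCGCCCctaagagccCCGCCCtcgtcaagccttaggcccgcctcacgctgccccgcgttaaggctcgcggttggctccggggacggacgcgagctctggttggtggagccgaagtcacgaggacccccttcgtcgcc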

How the data were processed

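Total RNA of 36 MEF libraries, depleted of rRNA, was sequenced, and the authors trimmed the reads, aligned them with STAR to GRCm38 and counted genes and repeat families together with TEtranscripts. The deposited values were raw counts, with the annotation release, the strand setting and the sharing of multiply mapped reads not given in the sources used here. The table held 54842 genes, 1561 repeat families and 1 unnamed row with 0.00326% of counts, which was left out. Repeat families took 17.56% to 30.57% of counts and entered neither library size nor tests. The study states 3 biological replicates per group.

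Counts were scaled by TMM and tested with edgeR 4.0.16 (R 4.3.3, limma 3.58.1) by the robust quasi-likelihood test, after filterByExpr, over all 36 libraries with 12 groups and the replicate number as a block, as the study's methods include it. P-values were adjusted by Benjamini-Hochberg over 28542 genes, and a gene passed at an adjusted p under 0.05. Printed CPM are scaled by TMM library sizes. Genes had 27376846 to 57371803 counts per library.

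All 10 genes are named, with Myc, the 2 largest falls and rises that passed in each pathway list at 12 h, the most counted snoRNA gene of each host, and the 5 genes most like the mean pattern. Look-alike pseudogenes were those aligning over at least 300 bases at 90% identity or more. The 10 genes and the lists were chosen with earlier results of these data known. Alternatives were DESeq2 1.42.0 and its size factors, other scalings, no filter, no block, the compared groups alone and leaving out each replicate. A block within each line was added after the data were seen. The fit was tested on simulated counts.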

Additional observations from a re-analysis of the deposited data

Results flagged for a closer look

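The change of the Activator minus Control difference from the uninduced state, tested as an interaction, passed for several genes (log2, edgeR, Benjamini-Hochberg adjusted). Upon induction it was -0.856 for Polr1b and -0.360 for Ubtf. At 12 h it was -0.699 for Polr1a, -1.652 for Polr1b, -0.805 for Ubtf and -0.571 for Dkc1. At 24 h it was -0.367 for Polr1a and -0.852 for Ubtf, and from 12 to 24 h it was 1.335 for Polr1b. The rRNA families, which no comparison used, were high in 1 library: the third Activator library at 12 h held 89934 CPM of LSU-rRNA_Hsa and 1183 CPM of SSU-rRNA_Hsa.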

How the results depend on the processing

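The number of the 10 genes that passed was within 1.5 times the reported count under most settings, with these exceptions. Between the lines before induction it was 0 with total library size, mitochondrial scaling, repeat families in the library size, or no replicate block. Mitochondrial scaling gave 9 upon induction, then 10 for the 3 h and 10 for the 12 h comparison. No replicate block gave 3 at 3 h, and the compared groups alone gave 3 for both the 6 h and the 24 h comparison. For the change from the uninduced state upon induction it was 1 with DESeq2's size factors and 4 (1 higher and 3 lower) with the groups alone or with a replicate block within each line. At 12 h this count was 8 with mitochondrial scaling. At 24 h it was 1 with DESeq2, its size factors, no filter, no replicate block or the groups alone, and 5 (2 higher and 3 lower) with the block within each line. From 12 to 24 h it was 2 with total library size, 3 with mitochondrial scaling and 4 with the block within each line. With the groups alone it was 1 and 5 in the Control line upon induction and at 24 h, and 10 (7 higher and 3 lower) in the Activator line upon induction. The block within each line gave 1 in the Control line at 24 h. Counts over all genes moved as well. The groups alone gave 2312 upon induction and 4358 at 24 h in the Control line, against 71 and 345 in the main fit. In the Activator line upon induction they gave 14387 against 17398.

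Leaving out 1 replicate gave counts of 0 to 2 before induction, 3 upon induction, 4 to 5 at 3 h, and 5 to 6 at 6, 12 and 24 h. For the changes from the uninduced state the counts were 1 to 3 (induced), 3 to 5 (12 h) and 1 to 2 (24 h), and for the change between 12 and 24 h they were 1 to 2. Within lines they were 0 for Control, and 5 to 7 upon induction and 4 to 5 at 24 h for Activator cells.

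Directions turned for small differences in log2. With DESeq2's size factors and DESeq2, Fbl was 0.02966 and 0.03028 (induced), 0.1186 and 0.1188 (3 h), and 0.09371 and 0.09502 (12 h). Ncl upon induction was 0.07871 and 0.0793. Nop56 at 6 h was 0.04804 and 0.04911. Nop58 was 0.1089 and 0.11 after 6, 0.04217 and 0.04348 after 12, and 0.04973 and 0.05054 after 24 h. With total library size Ncl was -0.072, -0.02205 and -0.06001 after 3, 6 and 12 h, and Fbl was -0.07318 at 6 h. With mitochondrial scaling Npm1 was, from induction to 24 h in order of time, -0.1372, -0.277, -0.2488, -0.3838 and -0.09629. Ncl was then -0.5677, -0.5951, -0.5792 and -0.2036 at 3, 6, 12 and 24 h, and Fbl -0.6455 at 6 h. Ncl upon induction was 0.007597 with repeat families in the library size, 0.01735 with no replicate block and 0.01029 with the groups alone. With the groups alone Fbl at 3 h was 0.03321 and Nop58 at 24 h 0.04345.

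Leaving out 1 replicate, the lowest values of Ncl, in order of time from induction to 24 h, were -0.09522, -0.1058, -0.07171, -0.01684 and -0.05123, and the highest were 0.0757, 0.1567, 0.2953, 0.2431 and 0.201. For Fbl after 3, 6 and 12 h the lowest were -0.1322, -0.06261 and -0.1749 and the highest 0.07413, 0.2246 and 0.05735. Nop56 at 6 h ran from -0.2579 to 0.01793, and Nop58 from -0.2101 to 0.05775 after 6 and from -0.09499 to 0.05506 after 24 h. The cause of these changes was not tested. With mitochondrial scaling 65.01% of the genes passing at 12 h were lower, against 43.96% with TMM.

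The replicate block follows the study's design formula. After the mean of each group was subtracted from log2 CPM (13632 genes), same-numbered libraries of the lines correlated with r from -0.02306 to 0.5085. This r was over 0.1 in 16 of 18 pairs, and the labels name no shared day or batch behind a number. Of 36 libraries 32 correlated best with their own number, a hint from the data and not from the design. With no replicate block the 12 h count was 5.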
